A study of Mus musculus with 24 samples.

Results

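The 9 genes described here, mt-Nd1, mt-Nd2, mt-Nd4, mt-Nd5, mt-Cytb, mt-Co1, mt-Co2, mt-Co3 and mt-Atp6, are encoded by the mitochondrial chromosome and code for core subunits of the respiratory chain and of ATP synthase. They were taken by gene identifier from the 47729 genes of the deposited per-retina tables, in RNA of microglia sorted from single mouse retinas. Another 28 genes lie on the same chromosome. The 9 had been picked because they were higher in 12-month than in 6-month DBA/2J mice, so that contrast is given below as a description and without a test.

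DBA/2J mice, whose labelled genotype is Gpnmb-/- Tyrp1b-/-, lose iris pigment and come to have raised eye pressure and glaucoma with age. The study used 24 retinas of 15 animals. There were 10 retinas of 5 DBA/2J animals at 12 months, 5 retinas of 5 DBA/2J animals at 6 months, and 9 retinas of 5 animals of the strain DBA/2J Gpnmb+ at 12 months, labelled Gpnmb+/+ Tyrp1b-/-. All animals therefore carry the Tyrp1b allele, and no group lacks it. Of the 12-month DBA/2J retinas, the labels call 3 from 2 animals mild, 4 from 3 animals moderate and 3 from 2 animals severe, and they describe the 6-month animals as early in the disease. Each library held the RNA of the CD11b+, Fcrls+ and Ly6c- cells of 1 retina.

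Mitochondria keep a small circular chromosome of their own. It is read as long polycistronic RNAs from both strands, which are cut at the transfer RNA genes that separate most of the coding genes. Its protein products are all built into oxidative phosphorylation complexes, each beside subunits made from nuclear genes. mt-Nd1, mt-Nd2, mt-Nd4 and mt-Nd5 are membrane subunits of complex I, the NADH dehydrogenase. mt-Cytb is the cytochrome b of complex III. mt-Co1, mt-Co2 and mt-Co3 form the core of complex IV, the cytochrome c oxidase. mt-Atp6 is part of the proton channel of complex V, the ATP synthase. Complexes I, III and IV pump protons across the inner membrane, and complex V uses the gradient to make ATP. Microglia are known to shift between this route and glycolysis when they are activated.

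Library depth, as rounded estimated counts per retina, ran in 12-month DBA/2J mice from 1706745 to 20081047, with 10693 to 15037 genes detected. In 6-month DBA/2J mice it ran from 12043862 to 17992997, with 13809 to 16706 genes, and in Gpnmb+ mice from 977873 to 14845259, with 3466 to 14460 genes. Some libraries stood apart. The left retina of 12-month DBA/2J animal 4 and the right retina of Gpnmb+ animal 2 had under 20% of the median total, and 5 retinas of Gpnmb+ animals 1, 2 and 3 had fewer than 10000 genes. All 10 microglia markers had counts in each group, and their summed level per animal was 27148.3 to 37943.1 CPM (counts scaled to a common library size) in 12-month DBA/2J, 33298.2 to 38361.6 CPM in 6-month DBA/2J and 16464.6 to 35024.5 CPM in Gpnmb+ animals. The 15 rod photoreceptor markers were detected as well, at a summed 521.3 to 2760.0 CPM in 12-month DBA/2J, 219.0 to 2558.8 CPM in 6-month DBA/2J and 385.8 to 10568.7 CPM in Gpnmb+ animals, the highest value being that of Gpnmb+ animal 2. Of the 6 markers of monocytes and recruited macrophages, 4 had counts in 12-month DBA/2J, at a summed 473.8 to 1265.2 CPM. In 6-month DBA/2J 4 had counts, at a summed 50.3 to 364.6 CPM, and in Gpnmb+ animals 6 had counts, at a summed 123.0 to 532.7 CPM. Ly6c2 was at 0 in both DBA/2J groups, in cells that were sorted as Ly6c-. Only 2 of the 6 had enough counts to be tested. Both were higher in 12-month DBA/2J than in Gpnmb+ (median log2 fold change 1.47), where 52.4% of all genes were. By edgeR's quasi-likelihood test 1 of them had an unadjusted p under 0.05 (2.75% of all genes) and 0 were called, while DESeq2 called 1. Both were also higher than in 6-month DBA/2J (median 1.38), where 50.6% of all genes were. Their part in the results below was not tested. Gpnmb itself had 0.0 CPM in all animals of both DBA/2J groups and 0.0 to 15.9 CPM, with a median of 0.0, in Gpnmb+ animals, so its level does not check the strain label of most animals.

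Near-identical stretches of the mitochondrial chromosome lie in the nuclear genome as annotated pseudogenes, and reads cannot be told apart where a copy has the same bases as the member. A search of the GRCm38 transcripts with the member sequences found 9 nuclear genes that matched a member over at least 150 bases at 95% identity or more. They are copies of 7 members, and none was found for mt-Nd1 or mt-Cytb. Those on chromosome 1 lie side by side, as do those on chromosome 2, and Gm4076, the copy of mt-Nd5, is on chromosome 13. The starts of mt-Co3 and of its chromosome 1 copy Gm28437 are shown because they are the same in every base, and because this pair decides what the mt-Co3 values mean. Next to them stand 2 stretches of mt-Co1 with its copies Gm29216 and Gm13340, in which capitals mark the bases that differ. All are in GRCm38, 5′ to 3′ on the strand of the gene, and are those of the reference strain.
mt-Co3 (chrM:8607-8666, plus strand): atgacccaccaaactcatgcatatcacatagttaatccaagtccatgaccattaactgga
Gm28437 (chr1:24613912-24613971, minus strand): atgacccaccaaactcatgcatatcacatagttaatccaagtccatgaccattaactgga
mt-Co1 (chrM:6390-6449, plus strand): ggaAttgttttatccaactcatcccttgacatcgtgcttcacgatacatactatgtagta
Gm29216 (chr1:24616129-24616188, minus strand): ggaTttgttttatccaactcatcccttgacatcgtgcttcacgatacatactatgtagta
mt-Co1 (chrM:5328-5387, plus strand): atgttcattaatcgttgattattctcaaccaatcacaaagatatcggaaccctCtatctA
Gm13340 (chr2:22589588-22589647, minus strand): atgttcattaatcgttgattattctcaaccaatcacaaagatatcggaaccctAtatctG

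Counted from 1 at the first base shown, Gm29216 differs from mt-Co1 by A4T, and Gm13340 differs from it by C54A and A60G. Over their whole alignments, Gm28437 matched 783 bases of mt-Co3, Gm10925 matched 678 bases of mt-Atp6, Gm28661 matched 681 bases of mt-Co2 and Gm28439 matched 876 bases of mt-Nd4, each at 100% identity. Gm29216 matched 483 bases of mt-Co1 at 99.8%. Identity was 97.6% for Gm13340 and mt-Co1, 95.9% for Gm13341 and mt-Co2, 96.7% for Gm13339 and mt-Nd2, and 95.2% for Gm4076 and mt-Nd5.

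The deposited estimates gave most reads of the shared mt-Co3 sequence to the nuclear copy. Gm28437 had counts in all 24 retinas, with a median of 835.8 CPM, while mt-Co3 itself had a median of 111.8 CPM and was at 0 in 5 retinas. A count of 0 allows up to 3 counts, which is 0.149 to 3.07 CPM in these 5 retinas, for counting error only. The share of the pair's counts that stood on Gm28437 ran from 50.6% in the left retina of 12-month DBA/2J animal 4 to 100% within 12-month DBA/2J mice, from 73.6% to 100% in 6-month DBA/2J mice, and from 17.5% in the right retina of Gpnmb+ animal 1 to 100% in Gpnmb+ mice. Summed over both, the single retinas ran from 696.5 up to 5165.4 CPM in 12-month DBA/2J, from 468.7 up to 766.5 CPM in 6-month DBA/2J and from 570.7 up to 2594.4 CPM in Gpnmb+ mice. The mt-Co3 row alone is therefore uncertain, and its values are given with Gm28437 added wherever the 2 differ. For the other members the copies held little. The median was 162.4 CPM for Gm29216, 1.93 CPM for Gm13340, 4.62 CPM for Gm10925 and 0.0 CPM for Gm28661, and Gm28439 had no counts in any retina. Per animal the copies held at most 13.1% of the mt-Co1 counts, 10.3% of the mt-Atp6 counts and, in 6-month DBA/2J animal 3, 38.4% of the mt-Co2 counts.

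**Figure D1:**
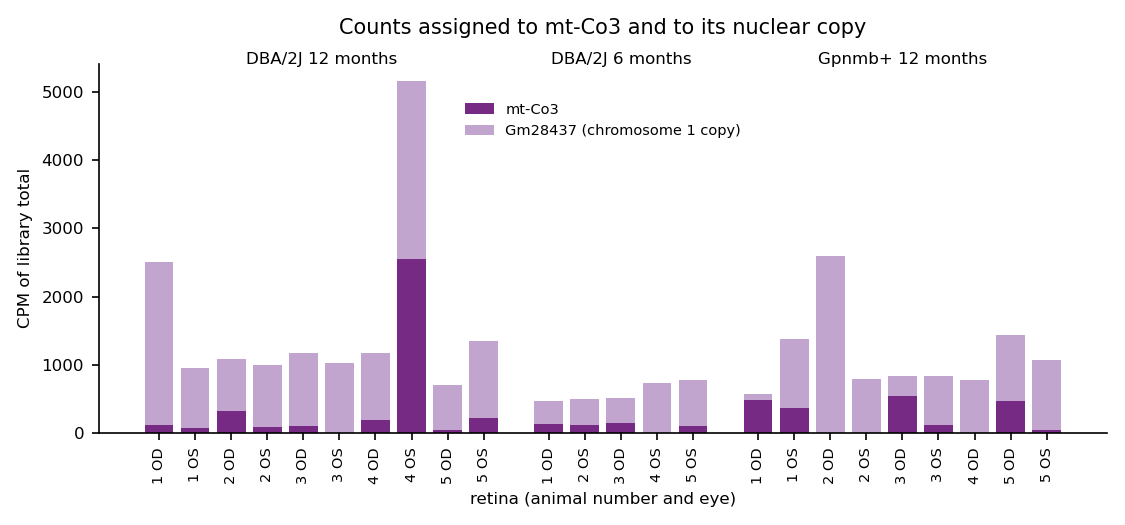
CPM of the library total for mt-Co3 (dark) and its chromosome 1 copy Gm28437 (light) in each of the 24 retinas, by group, animal number and eye. The copy holds all counts in 5 retinas, and the left retina of 12-month DBA/2J animal 4 stands highest at 5165.4 CPM for both together.

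Per length, the members differed several-fold in level. On the authors' TPM scale, which divides by transcript length, and with the copies added by length, mt-Atp6 had the highest median over the 24 retinas at 4549.3 TPM. It was followed by mt-Co1 at 2852.4, mt-Co2 at 2504.8, mt-Co3 at 2245.8 and mt-Nd1 at 1886.0 TPM. mt-Cytb had 906.2, mt-Nd4 484.7, mt-Nd5 404.5 and mt-Nd2 249.8 TPM, so the complex I transcripts other than mt-Nd1 stood at the bottom. mt-Nd1 was above mt-Cytb, and mt-Cytb above mt-Nd4, in 24 of 24 retinas. mt-Atp6 was above mt-Co1 in 23 of them. The order was less settled between mt-Co1 and mt-Co2 (19 retinas), mt-Co2 and mt-Co3 (20), mt-Co3 and mt-Nd1 (17), mt-Nd4 and mt-Nd5 (15), and mt-Nd5 and mt-Nd2 (19). mt-Atp6 overlaps mt-Atp8 by 43 bases and mt-Nd4 overlaps mt-Nd4l by 7 bases on the same strand, and mt-Nd5 overlaps mt-Nd6 by 14 bases on opposite strands, so reads there may have been shared.

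The levels below are CPM on the TMM-scaled total, per animal with both eyes summed, in the order of the animal numbers. Of the 12977 genes that passed the filter on low counts, none was called at an adjusted p under 0.05 in the comparison of 12-month DBA/2J with Gpnmb+ mice by edgeR's quasi-likelihood test, and all 9 members passed the filter. At an unadjusted p under 0.05, 2.75% of the genes were higher and 2.45% lower in 12-month DBA/2J. None of the 9 members was among them, and none was called by DESeq2, which called 108 genes. The groups overlapped for 9 of 9 members, where 0.832% of all genes were higher and 0.285% lower in 12-month DBA/2J without overlap.

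Complex I. mt-Nd1, whose product sits where ubiquinone is reduced, had 1359.5, 1246.4, 955.1, 1125.1 and 1239.0 CPM in 12-month DBA/2J animals. It had 414.7, 821.6, 583.2, 871.3 and 866.6 CPM in 6-month DBA/2J and 1985.9, 1193.6, 1441.6, 815.7 and 1429.7 CPM in Gpnmb+ animals. All 12-month DBA/2J animals lay above all 6-month ones, by a log2 fold change of 0.74 ± 0.24 (SE), and inside the range of the Gpnmb+ animals. Against Gpnmb+ the log2 fold change was -0.21 ± 0.23 (SE, 5 animals each, adjusted p = 0.999).

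mt-Nd2, one of the proton-pumping membrane subunits, was the least abundant of the 9 per length. It had 244.8, 247.6, 144.9, 296.7 and 144.5 CPM in 12-month DBA/2J, 48.6, 88.1, 95.1, 105.2 and 100.1 CPM in 6-month DBA/2J, and 408.8, 346.0, 163.4, 57.3 and 146.1 CPM in Gpnmb+ animals. The lowest 12-month DBA/2J animal was above the highest 6-month one, with a log2 fold change of 1.303 ± 0.42. The Gpnmb+ animals spread widely on both sides of the 12-month DBA/2J values, and the log2 fold change against them was -0.06 ± 0.41 (adjusted p = 0.999).

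mt-Nd4 and mt-Nd5, also proton-pumping subunits, overlapped between the ages. mt-Nd4 had 465.1, 600.3, 334.1, 448.0 and 484.4 CPM in 12-month DBA/2J, 171.4, 221.1, 264.1, 339.5 and 241.7 CPM in 6-month DBA/2J, and 859.9, 703.4, 417.3, 296.2 and 492.6 CPM in Gpnmb+ animals. mt-Nd5 had 492.3, 559.7, 583.8, 382.4 and 631.4 CPM in 12-month DBA/2J, 205.1, 362.1, 352.5, 425.8 and 430.9 CPM in 6-month DBA/2J, and 932.4, 538.8, 499.3, 331.8 and 698.3 CPM in Gpnmb+ animals. In each case 1 animal or more of the 6-month group reached into the 12-month DBA/2J range, while the means stood apart by log2 fold changes of 0.91 ± 0.27 for mt-Nd4 and 0.58 ± 0.27 for mt-Nd5. Against Gpnmb+ the log2 fold changes were -0.25 ± 0.27 and -0.18 ± 0.26 (adjusted p = 0.999 for both).

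Complex III. mt-Cytb, the only subunit of this complex that the mitochondrial chromosome encodes, had 908.1, 645.3, 534.1, 836.6 and 731.6 CPM in 12-month DBA/2J animals. It had 322.3, 461.3, 439.2, 463.4 and 480.9 CPM in 6-month DBA/2J, a narrow range apart from animal 1, and 981.5, 1080.9, 599.7, 372.3 and 888.2 CPM in Gpnmb+ animals. The 2 ages did not overlap, at a log2 fold change of 0.75 ± 0.25. The 12-month DBA/2J animals lay within the Gpnmb+ range, at a log2 fold change of -0.10 ± 0.25 (adjusted p = 0.999).

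Complex IV. mt-Co1, the subunit that holds the site of oxygen reduction, was the steadiest member among 12-month DBA/2J animals, with 2920.9, 3032.1, 2763.0, 2856.3 and 3079.3 CPM. It had 1494.6, 2166.2, 1831.6, 2316.8 and 2387.2 CPM in 6-month DBA/2J, and 5535.4, 2878.0, 2654.5, 1987.2 and 3336.0 CPM in Gpnmb+ animals. The difference in age was the smallest of the 9, a log2 fold change of 0.52 ± 0.21, although the groups did not overlap. Gpnmb+ animals reached from below to well above the 12-month DBA/2J range, and the log2 fold change against them was -0.16 ± 0.21 (adjusted p = 0.999).

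mt-Co2, which takes electrons from cytochrome c, split the 12-month DBA/2J animals, with 1529.6 and 1556.8 CPM in animals 1 and 4 and 987.1, 912.5 and 871.4 CPM in animals 2, 3 and 5. It had 347.9, 545.7, 275.9, 756.4 and 604.9 CPM in 6-month DBA/2J, and 1064.6, 850.2, 785.8, 507.8 and 1067.4 CPM in Gpnmb+ animals. The log2 fold change between the ages was 1.21 ± 0.28, without overlap. Against Gpnmb+ it was 0.45 ± 0.28, with the smallest unadjusted p of the 9 at 0.123 by edgeR (adjusted p = 0.999).

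mt-Co3, the third core subunit, had 83.6, 261.9, 35.3, 739.6 and 128.1 CPM on its own row in 12-month DBA/2J, 112.5, 110.4, 126.3, 0.0 and 81.9 CPM in 6-month DBA/2J, and 546.8, 0.0, 294.8, 0.0 and 235.1 CPM in Gpnmb+ animals. With Gm28437 added it had 1610.3, 1165.4, 1084.9, 2183.0 and 994.9 CPM in 12-month DBA/2J, 426.4, 469.4, 483.1, 725.1 and 695.4 CPM in 6-month DBA/2J, and 1336.7, 1097.3, 854.6, 745.2 and 1187.9 CPM in Gpnmb+ animals. The row alone overlapped between all groups, whereas the sum separated the 6-month animals from both 12-month groups. The log2 fold change between the ages was 1.53 ± 1.46 for the row and 1.33 ± 0.24 for the sum. Against Gpnmb+ it was 0.21 ± 1.43 for the row and 0.43 ± 0.24 for the sum (adjusted p = 0.999 for both).

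Complex V. mt-Atp6, whose product carries protons through the membrane part of the synthase, had 2504.1, 1774.7, 1288.9, 2403.9 and 1388.7 CPM in 12-month DBA/2J, with animals 1 and 4 again highest. It had 517.3, 875.5, 723.1, 955.5 and 1178.4 CPM in 6-month DBA/2J, and 1896.4, 1435.9, 1541.9, 849.2 and 1856.8 CPM in Gpnmb+ animals. The ages did not overlap, at a log2 fold change of 1.14 ± 0.26. Against Gpnmb+ the log2 fold change was 0.30 ± 0.26 (adjusted p = 0.999).

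**Figure D2:**
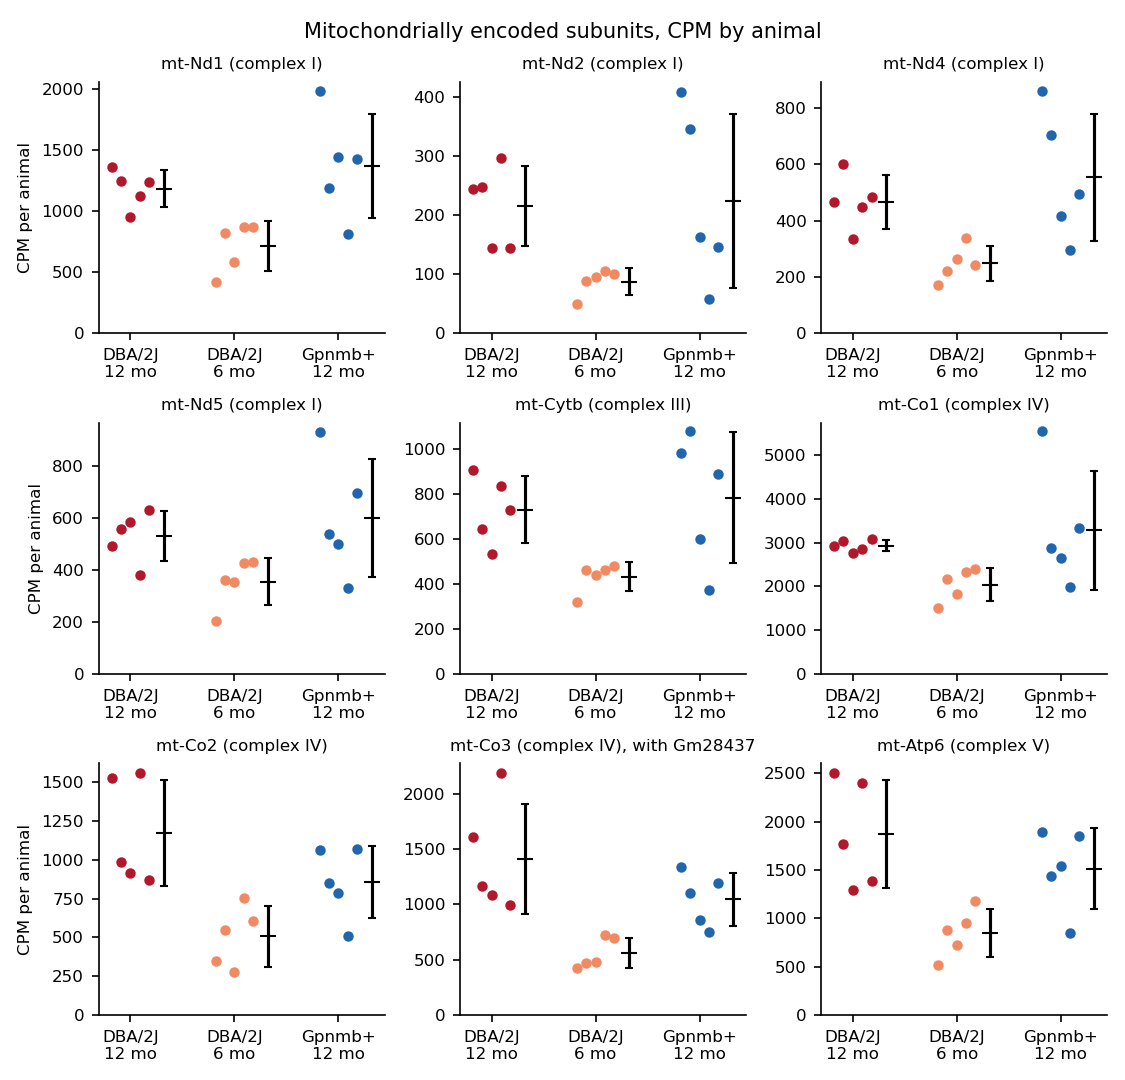
CPM of each member per animal in 12-month DBA/2J, 6-month DBA/2J and 12-month Gpnmb+ mice (5 animals each, points), with the mean and SD in black; mt-Co3 is drawn with Gm28437 added. The 6-month animals have the lowest mean in every panel.

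Seen across the 9, the members were higher in 12-month than in 6-month DBA/2J mice in 9 of 9 cases, with a median log2 fold change of 0.91, where 50.6% of all genes tested were higher and the median was 0.01. The 2 groups did not overlap for 6 members, and for 7 with the copies added, against 1.43% of all genes. These counts follow from how the members were picked. Rod markers stood the same way in this contrast, 13 of 15 higher in 12-month DBA/2J with a median of 1.19. In 6-month DBA/2J against Gpnmb+ 0 of 15 were higher, with a median of -1.73. In 12-month DBA/2J against Gpnmb+ 2 of 15 rod markers were higher, with a median of -0.54, where 52.4% of all genes were higher. Gpnmb+ animal 2, at 10568.7 CPM, weighs on the Gpnmb+ mean in both of these folds. By the median animal, summed rod markers were at 1973.8 CPM in 12-month DBA/2J, 522.5 CPM in 6-month DBA/2J and 825.1 CPM in Gpnmb+. The part of the rod markers in the members' values was not tested. The 6-month DBA/2J animals were also below the Gpnmb+ animals on average for 9 of 9 members, by a median log2 fold change of -0.86 (all genes 0.03, of which 51.3% were higher), a value that rests on the same 6-month libraries. There, 0 of 9 members were without overlap, and 1 with the copies added, against 0.239% of all genes. The contrast of 12-month DBA/2J with Gpnmb+ was not the one the members were picked on, but its 12-month DBA/2J libraries are those whose high values picked them. There 3 of 9 members were higher where 52.4% of all genes were. The median log2 fold change of the members was -0.10, against 0.05 for all genes, and ranged from -0.25 for mt-Nd4 to 0.45 for mt-Co2. This median became 0.26 without the 5 retinas of few genes and 0.11 without Gpnmb+ animal 1. In these bulk libraries fewer cells of a type and less RNA per cell cannot be told apart. No 6-month library had fewer than 12043862 counts. Between the ages, the members' median log2 fold change was 0.71 without the 2 retinas of low depth and 0.92 without the 5 of few genes.

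**Figure D3:**
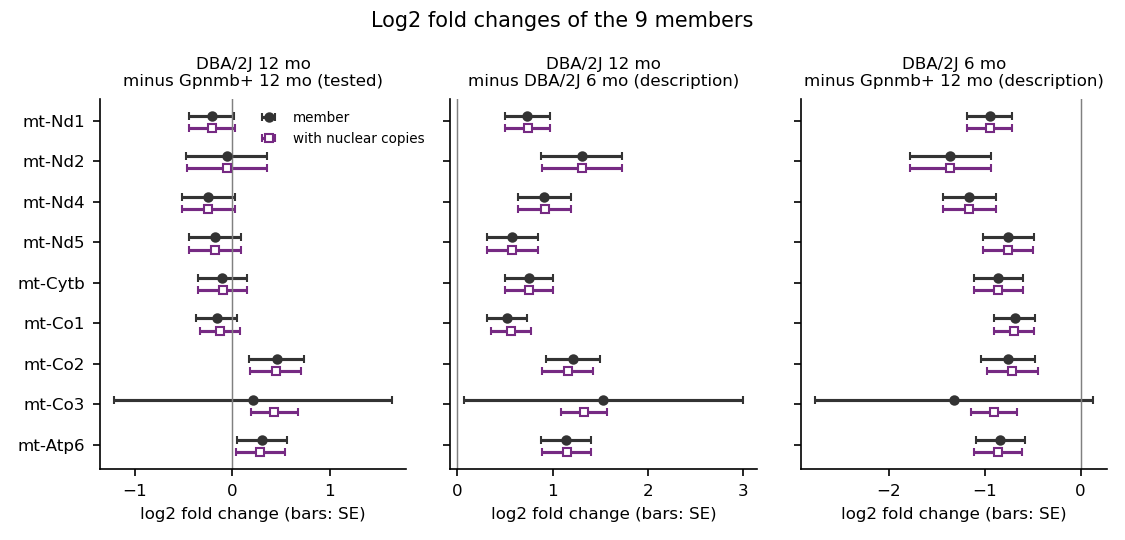
Log2 fold changes with SE of the 9 members in the 3 comparisons of groups, for the member's own row (filled circles) and with its nuclear copies added (open squares). In the comparison with Gpnmb+ at the same age the members lie on both sides of 0, from -0.25 to 0.45, while the 2 contrasts with the 6-month animals are descriptions.

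As a share of the library, the 9 members held 0.896 ± 0.103% of all counts in 12-month DBA/2J, 0.564 ± 0.117% in 6-month DBA/2J and 0.890 ± 0.220% in Gpnmb+ animals (SD, n = 5 each). The single animals stood at 0.975, 0.843, 0.744, 0.993 and 0.925% in 12-month DBA/2J, at 0.400, 0.594, 0.500, 0.626 and 0.702% in 6-month DBA/2J, and at 1.06, 0.956, 0.823, 0.539 and 1.07% in Gpnmb+ mice. The 12-month DBA/2J animals were all above the 6-month ones and lay inside the range of the Gpnmb+ animals, of which animal 4 lay among the 6-month values. With the copies added the shares were 1.04 ± 0.137% in 12-month DBA/2J, 0.632 ± 0.130% in 6-month DBA/2J and 0.998 ± 0.234% in Gpnmb+ animals. The ribosomal RNA mt-Rnr2, the largest mitochondrial transcript in these libraries by count, held 1.02 ± 0.149% of the counts in 12-month DBA/2J, 0.575 ± 0.229% in 6-month DBA/2J and 1.04 ± 0.264% in Gpnmb+ animals. All mitochondrial genes together held 1.94 ± 0.220% in 12-month DBA/2J, 1.15 ± 0.341% in 6-month DBA/2J and 1.95 ± 0.457% in Gpnmb+ animals.

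By retina, the 2 highest shares were those of the 2 libraries of low depth. They were 1.77% in the left retina of 12-month DBA/2J animal 4, graded mild, and 2.18% in the right retina of Gpnmb+ animal 2. The other retina of 12-month DBA/2J animal 4 stood at 0.778%, and that of Gpnmb+ animal 2 at 0.637%. Among the grades the share was 0.778, 0.787 and 1.77% in mild retinas, 0.792, 0.869, 1.03 and 1.55% in moderate retinas, and 0.664, 0.688 and 0.848% in severe retinas, against 0.539 to 2.18% with a median of 0.830% in Gpnmb+ retinas. The grades overlapped, and each reached into the Gpnmb+ range.

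**Figure D4:**
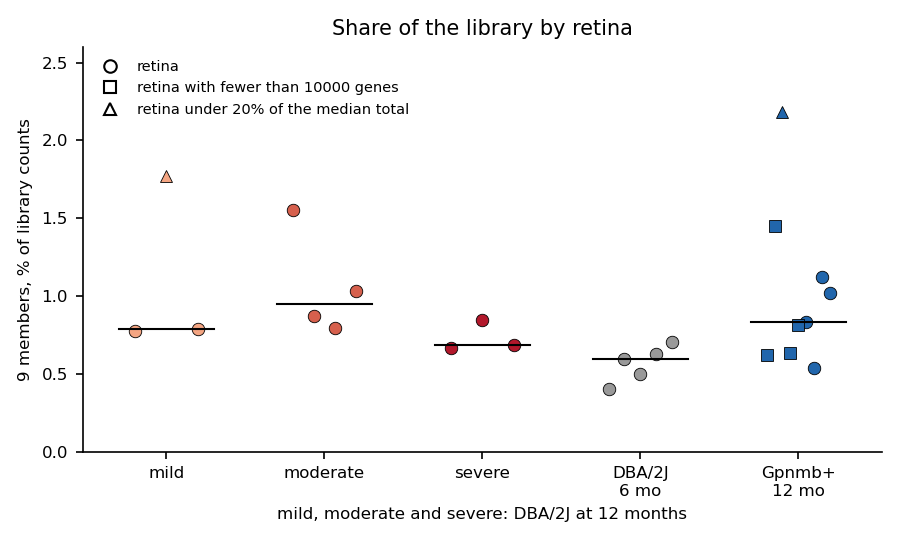
Share of the library held by the 9 members, in percent of all counts, for each retina of mild, moderate and severe 12-month DBA/2J, of 6-month DBA/2J and of Gpnmb+ mice, with the median as a line. Triangles mark the 2 retinas under 20% of the median total, which hold the highest shares (1.77% and 2.18%); squares mark further retinas with fewer than 10000 genes.

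The grades were set against Gpnmb+ mice in a fit of 17 sums by animal and grade with 15965 genes tested, and against each other as a trend over mild, moderate and severe in 7 sums of the 5 12-month DBA/2J animals with 12019 genes tested. The sums are the 12-month DBA/2J retinas whose high values picked the members, so the 3 comparisons with Gpnmb+ are not free of that choice, and they share the same control animals. No gene was called in any of the 4 by edgeR at an adjusted p under 0.05, and DESeq2, which called 599 genes in mild, 296 in moderate, 281 in severe retinas and 26 in the trend, called no member. In mild retinas 5 of 9 members were higher than in Gpnmb+ (44.2% of all genes), with a median log2 fold change of 0.01 against -0.11 for all genes. That median lay on either side of 0 when 1 animal was left out, from -0.353 without 12-month DBA/2J animal 4 to 0.131 without Gpnmb+ animal 2, and was -0.090 with RLE scaling and -0.220 without the retinas of low depth. In moderate retinas 8 of 9 were higher (47.6% of all genes), with a median of 0.20 against -0.02, and 9 of 9 with a median of 0.43 once the copies were added. The median was 0.77 without the 5 retinas of few genes, 0.51 without Gpnmb+ animal 1, 0.06 without Gpnmb+ animal 4 and 0.05 without 12-month DBA/2J animal 1. In severe retinas 0 of 9 were higher (45.9% of all genes), with a median of -0.45 against -0.06, and 2 of 9 with a median of -0.30 once the copies were added. The median was -0.04 without the 5 retinas of few genes and -0.298 without Gpnmb+ animal 1. On its own row mt-Co3 had a log2 fold change of 0.87 ± 1.76 in mild and -2.10 ± 2.07 in severe retinas. With Gm28437 added it had 0.47 ± 0.40 in mild and 0.04 ± 0.40 in severe retinas. At an unadjusted p under 0.05, 0 of 9 members passed in mild and in severe retinas, where 2.67% of all genes in mild and 3.07% in severe retinas were higher and 2.75% in mild and 1.20% in severe retinas lower.

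The summed levels of markers of other cells also varied between the grades. The summed rod markers stood at 521.3 and 658.6 CPM in mild, at 1973.8 to 6220.1 CPM in moderate and at 874.4 and 1117.7 CPM in severe sums, so the moderate sums lay apart. Against Gpnmb+, 1 of 15 rod markers was higher in mild retinas (median log2 fold change -1.72), 14 of 15 in moderate retinas (0.80) and 0 of 15 in severe retinas (-1.60). Gpnmb+ animal 2 weighs on the mean behind these folds, with 1.06% of its counts on rod markers. The other Gpnmb+ animals had 0.0386 to 0.156%. The median summed level of Gpnmb+ animals was 825.1 CPM, below both severe sums. Folds without animal 2 are not given. The moderate eye of animal 1 had the highest share of counts on rod markers among the 12-month DBA/2J retinas, 0.622%. Markers of border-associated macrophages summed to 2.91 and 4.96 CPM in mild, 61.8 to 186.2 CPM in moderate and 9.62 and 30.6 CPM in severe sums, with Lyve1 and F13a1 at 0 in mild retinas, and 4 of 5 were higher in moderate retinas than in Gpnmb+ (median 2.05). Monocyte and recruited macrophage markers summed to 309.4 and 753.8 CPM in mild and 704.7 to 2337.2 CPM in moderate sums, which overlapped. Severe sums had 473.8 and 681.0 CPM. Of 5 such markers tested, 3 were higher in moderate retinas than in Gpnmb+ (median 2.14), and 2 in mild and in severe retinas. In moderate retinas edgeR called 0 of them and DESeq2 called 1. Microglia markers summed to 27448.7 and 37648.2 CPM in mild, 15725.5 to 27148.3 CPM in moderate and 35563.7 and 37943.1 CPM in severe sums. In moderate retinas 7 of 10 of them were lower than in Gpnmb+, where 47.6% of all genes were higher. At an unadjusted p under 0.05 by edgeR, 3 were lower and 1 higher (3.71% and 4.76% of all genes), and none was called. In mild retinas 8 of 10 were higher (44.2% of all genes), 2 of them at this threshold (2.67%). In severe retinas 9 of 10 were higher (45.9%), 3 of them at this threshold (3.07%), with 1 called by DESeq2 and 0 by edgeR. The part of these cells in the members' values by grade was not tested.

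In moderate retinas 2 members passed the unadjusted threshold on their own rows, both higher, where 4.76% of all genes passed it higher and 3.71% lower. This count leaves out the copies. For mt-Co3 the log2 fold change was -0.14 ± 1.60 on its own row and 0.78 ± 0.35 with Gm28437 added. The sum was thus as far apart as mt-Atp6 with its copy added, at 0.77 ± 0.35 (adjusted p = 0.585 for both by edgeR). mt-Co2 had 3209.1, 976.5 and 1047.3 CPM in the moderate eyes of animals 1, 2 and 5, against 1066.9, 796.9, 774.2, 502.2 and 1065.3 CPM in Gpnmb+ animals. mt-Atp6 had 4702.5, 1755.7 and 1481.2 CPM in the same moderate eyes, against 1900.4, 1346.0, 1519.0, 839.8 and 1853.2 CPM in Gpnmb+ animals. Only the moderate eye of animal 1 was above all Gpnmb+ animals for either gene. The log2 fold changes were 1.05 ± 0.40 for mt-Co2 (unadjusted p = 0.016) and 0.83 ± 0.35 for mt-Atp6 (unadjusted p = 0.0284) by edgeR's quasi-likelihood test, both with an adjusted p of 0.579. Without animal 1 they were 0.28 (adjusted p = 1.0) and 0.13 (adjusted p = 1.0), and over the removal of any other single animal 0.91 to 1.34 and 0.68 to 1.09.

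Over the grades, 1 of 9 members had a positive slope and 8 a negative one, none past the adjusted threshold (adjusted p = 1.0 for all 9 by edgeR), with a median of -0.22 log2 units per grade against 0.00 for all genes, of which 50.1% were higher. The members' median was -0.43 per grade with the animal as a block, -0.02 without animal 3, -0.15 without animal 1, -0.525 without animal 5 and -0.09 without the retina of low depth. The blocked slope rests on animals 1 and 5 alone, the only ones with eyes of different grades. Members fell from moderate to severe in animal 1 and rose from mild to moderate in animal 5. The blocked slope is therefore no check of the trend. mt-Co3 was the only member with an unadjusted p under 0.05, in the lower direction, where 0.616% of all genes had one, and 0.815% had one in the higher direction. Its row had 743.3 and 40.8 CPM in mild, 126.5, 259.1 and 199.2 CPM in moderate and 64.5 and 35.5 CPM in severe sums, a change of -1.50 ± 0.52 per grade (unadjusted p = 0.015). With Gm28437 added it had 2194.0 and 653.7 CPM in mild, 2852.8, 1152.9 and 1277.3 CPM in moderate and 1026.6 and 1089.6 CPM in severe sums, and the change was -0.22 ± 0.36 per grade. The slope of the row alone was also 0.66, on the other side of 0, with the animal as a block. It joins a fall in animal 1 (126.5 CPM moderate, 64.5 CPM severe) and a rise in animal 5 (40.8 CPM mild, 199.2 CPM moderate). mt-Nd5 was the member with a positive slope, 0.16 ± 0.24 per grade.

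Animals 1 and 5 had eyes of different grades, which sets grades side by side within an animal. In animal 1, with the copies added and on the TMM-scaled total, the moderate eye was higher than the severe eye for 9 of 9 members. mt-Cytb had 1746.0 CPM in its moderate and 507.4 CPM in its severe eye, mt-Nd1 had 2111.4 CPM in the moderate and 1021.5 CPM in the severe eye, and mt-Nd2 had 492.9 CPM in the moderate and 125.7 CPM in the severe eye. mt-Nd5 was nearly equal, at 514.6 CPM in the moderate and 500.2 CPM in the severe eye. In animal 5, the moderate eye was higher than the mild eye for 9 of 9 members. mt-Co3 was furthest apart, at 653.7 CPM in the mild and 1277.3 CPM in the moderate eye, followed by mt-Nd5 at 471.4 CPM in the mild and 765.5 CPM in the moderate eye. mt-Co1 had 2667.6 CPM in the mild and 3895.1 CPM in the moderate eye, whereas mt-Nd2, with 144.2 CPM in the mild and 146.2 CPM in the moderate eye, was nearly equal. With 1 animal for each pair of grades these differences have no replicate check.

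**Figure D5:**
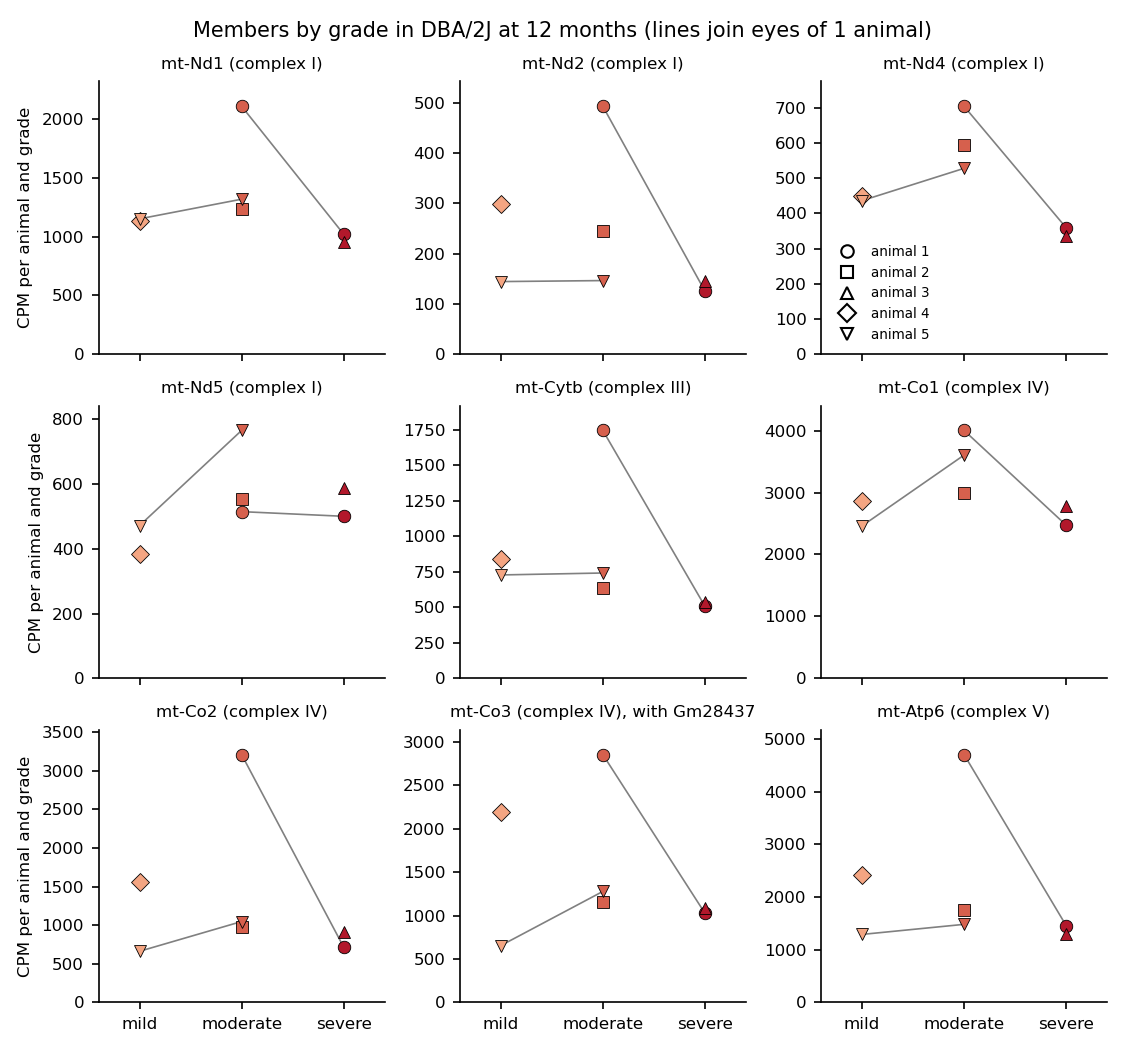
CPM per animal and grade of each member in 12-month DBA/2J mice, graded mild (2 sums), moderate (3 sums) or severe (2 sums); symbols give the animal and lines join the eyes of animals 1 and 5, and mt-Co3 is drawn with Gm28437 added. The moderate eye of animal 1 is the highest sum for every member except mt-Nd5.

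The difference between the eyes of 1 animal was often as large as the difference between groups. In log2 CPM of the library, with the copies added, the median absolute difference over the 9 members was 1.41 and 1.39 in 12-month DBA/2J animals 1 and 4, and 0.29, 0.46 and 0.26 in animals 2, 3 and 5. It was 1.24 and 1.72 in Gpnmb+ animals 1 and 2, and 0.15 and 0.11 in animals 3 and 5, while animal 4 had 1 retina. Within these 4 discordant animals the members nearly all went the same way: the right eye was higher for 8 of 9 members in 12-month DBA/2J animal 1 and for 9 of 9 in Gpnmb+ animal 2, and the left eye for 9 of 9 in 12-month DBA/2J animal 4 and in Gpnmb+ animal 1. Gpnmb+ animals 1 and 2 include retinas of few genes, and 12-month DBA/2J animal 4 and Gpnmb+ animal 2 each include a retina of low depth. The part of depth in these differences was not tested. Between animals, the SD of log2 CPM was 0.30 in 12-month DBA/2J, 0.39 in 6-month DBA/2J and 0.52 in Gpnmb+ mice as the median over the members.

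The members also moved together from animal to animal. Over the 15 animals, after each group's mean was removed, Pearson's r between log2 CPM of 2 members ranged from 0.445 to 0.890 with a median of 0.714 over the 28 pairs that leave out mt-Co3. Over the 8 pairs with the mt-Co3 row it ranged from 0.043 to 0.361 with a median of 0.218, and with Gm28437 added to mt-Co3 from 0.333 to 0.845 with a median of 0.636. These are descriptions over points that share libraries and depth. Among 3395 genes off the mitochondrial chromosome whose log2 CPM averaged 5 or more, the deviations most like the mean of the 9 members were those of Rps6 (r = 0.889) and Rpl7 (r = 0.854), both ribosomal proteins, of Bcl2a1a (r = 0.864), a member of the Bcl2 family that restrains cell death, of Msl1 (r = 0.841), of Tspan13 (r = 0.832) and of Psmd4 (r = 0.832), a proteasome subunit. Those most opposite were Trpc4ap (r = -0.807), Sec31a (r = -0.804), a coat protein of vesicles that leave the endoplasmic reticulum, and 0610040J01Rik (r = -0.799). Bcl2a1a has near-identical paralogs, so its counts are uncertain.

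Within the pool of the 9 members, again with the copies added, mt-Co1 was the largest part, at 29.7 ± 3.96% of the members' counts in 12-month DBA/2J, 36.3 ± 1.80% in 6-month DBA/2J and 32.7 ± 3.40% in Gpnmb+ animals. mt-Atp6 held 17.5 ± 2.96% in 12-month DBA/2J, 14.6 ± 1.23% in 6-month DBA/2J and 15.2 ± 1.78% in Gpnmb+ animals (SD, n = 5 each). mt-Co3 held 12.8 ± 2.71% in 12-month DBA/2J, 9.43 ± 1.11% in 6-month DBA/2J and 10.2 ± 1.32% in Gpnmb+ animals. mt-Nd2 was the smallest part, at 1.96 ± 0.403% in 12-month DBA/2J, 1.46 ± 0.215% in 6-month DBA/2J and 1.99 ± 0.977% in Gpnmb+ animals. mt-Co1 in 6-month animals ran from 34.7 to 38.9%, above all 12-month DBA/2J animals, which ran from 25.3 to 33.8%.

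Of the 28 other mitochondrial genes, 6 passed the filter on low counts. They are mt-Rnr1 and mt-Rnr2, the RNAs of the mitochondrial ribosome, mt-Nd3 and mt-Nd6 of complex I, mt-Atp8 of complex V, and the transfer RNA gene mt-Ts1, the only one of 22 transfer RNA genes to pass. mt-Nd6 is the one protein gene on the opposite strand. In 12-month DBA/2J against Gpnmb+ the log2 fold changes were 0.32 ± 0.46 for mt-Rnr1, -0.06 ± 0.29 for mt-Rnr2, 0.39 ± 0.44 for mt-Atp8, 0.68 ± 0.53 for mt-Nd3 and -0.05 ± 0.49 for mt-Nd6, all with an adjusted p of 0.999 by edgeR. Against 6-month DBA/2J they were 1.33 ± 0.47 for mt-Rnr1, 0.97 ± 0.29 for mt-Rnr2, 1.298 ± 0.44 for mt-Atp8, 2.04 ± 0.54 for mt-Nd3 and 1.23 ± 0.50 for mt-Nd6, given without a test because the members were picked on this contrast. mt-Nd3 had a median of 39.6 CPM per retina in 12-month DBA/2J, 10.8 CPM in 6-month DBA/2J and 31.0 CPM in Gpnmb+ mice. mt-Nd4l had counts in 5 retinas and did not pass the filter in the fit of 15 animals.

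The nuclear partners of the members did not pass the test against Gpnmb+ either. In 12-month DBA/2J against Gpnmb+, 26 of 36 nuclear complex I subunits were higher with a median log2 fold change of 0.28, 4 of 4 of complex II (median 0.32), 9 of 9 of complex III (median 0.45), 10 of 11 of complex IV (median 0.56) and 14 of 15 of complex V (median 0.47), against 52.4% and 0.05 over all genes tested. None was called by edgeR or by DESeq2. An unadjusted p under 0.05 by edgeR, in the higher direction, was found for 2 genes of complex I, Ndufb11 and Ndufc2, and 1 of complex IV, Cox4i1, where 2.75% of all genes were higher. Those with the smallest p in each complex were Ndufb11 of complex I (log2 fold change 1.07 ± 0.46, adjusted p = 0.846), Cox4i1 of complex IV (0.61 ± 0.24, adjusted p = 0.732), Atp5g1 of complex V (1.05 ± 0.54, adjusted p = 0.998), Uqcrh of complex III (0.57 ± 0.45, adjusted p = 0.999) and Sdhb of complex II (0.30 ± 0.29, adjusted p = 0.999) by edgeR. Against 6-month DBA/2J, 34 of 36 complex I genes were higher (median 0.54), 1 of 4 of complex II (median -0.23), 8 of 9 of complex III (median 0.78), 11 of 11 of complex IV (median 0.65) and 15 of 15 of complex V (median 0.66), where 50.6% of all genes were higher. Complex II has no mitochondrially encoded subunit, and 3 of its 4 genes were lower there. Between the ages edgeR called 0 of all genes tested, and DESeq2 called 1 of these nuclear subunits, Atp5b of complex V (log2 fold change 0.66, adjusted p = 0.00525 by DESeq2).

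A list of 30 genes was drawn up for mitochondrial transcription and RNA handling. It also holds genes that copy mitochondrial DNA, such as Polg, and regulators of nuclear genes, such as Ppargc1a. Of the 30, 28 were tested. In 12-month DBA/2J against Gpnmb+ 16 were higher and 12 lower, with a median log2 fold change of 0.14. None was called by edgeR or DESeq2, and 0 had an unadjusted p under 0.05. The smallest p were those of Supv3l1, a helicase of RNA turnover (1.77 ± 1.06, adjusted p = 0.999), and Polrmt, the mitochondrial RNA polymerase (-1.49 ± 0.92, adjusted p = 0.999), by edgeR. Against 6-month DBA/2J 17 were higher and 11 lower, with a median of 0.21. Of 12 general mitochondrial proteins, such as Tomm20 and Tomm22 of the import pore, 10 were higher against Gpnmb+ with a median of 0.41, none of them called by edgeR or DESeq2 and 0 with an unadjusted p under 0.05. Against 6-month DBA/2J 8 were higher, with a median of 0.25. Over the grades, 9 of 36 complex I, 1 of 4 complex II, 4 of 9 complex III, 4 of 11 complex IV and 7 of 15 complex V nuclear genes had a positive slope, with no gene under an unadjusted p of 0.05 by edgeR and none called by DESeq2. Ndufb9 of complex I, with the smallest p of its list, had a slope of -0.52 ± 0.35 per grade (adjusted p = 1.0).

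By grade, the nuclear subunits were furthest above Gpnmb+ in moderate retinas, the grade in which the rod and border-associated macrophage markers given above were also highest and the microglia markers lowest. Monocyte and recruited macrophage markers had their highest median sum in this grade too, at 1078.6 CPM. There 32 of 36 genes of complex I were higher (median log2 fold change 0.84), 3 of 4 of complex II (0.72), 9 of 9 of complex III (1.14), 10 of 11 of complex IV (1.16) and 15 of 15 of complex V (0.77), where 47.6% of all genes were. edgeR called none of them and DESeq2 called 1, Cox4i1 of complex IV, which had a log2 fold change of 1.24 ± 0.35 by edgeR (adjusted p = 0.579) and an adjusted p of 0.0336 by DESeq2. At an unadjusted p under 0.05 by edgeR, the genes that were higher were Ndufc2 of complex I, Sdhb of complex II, Uqcrq of complex III, Cox4i1, Cox5a, Cox6b1, Cox8a and Ndufa4 of complex IV, and Atp5b and Atp5g1 of complex V, where 4.76% of all genes were higher. They are named by their p-values in this comparison, after these were seen. Without animal 1, whose moderate eye also led the members, the medians in moderate retinas were 0.48 for complex I, 0.76 for complex II, 0.86 for complex III, 0.61 for complex IV and 0.41 for complex V, and 0 genes had an unadjusted p under 0.05. Without the 5 Gpnmb+ retinas of few genes they were 0.99, 0.33, 1.23, 1.299 and 0.80 in the same order of complexes. In that setting 7, 0, 3, 7 and 5 genes, in this order, were higher at an unadjusted p under 0.05 by edgeR. Of all 15730 genes tested there, 697 were. That setting leaves no retina of Gpnmb+ animals 1 and 2.

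In mild retinas the medians against Gpnmb+ were 0.29 for complex I, 0.14 for complex II, 0.20 for complex III, 0.34 for complex IV and 0.17 for complex V. In severe retinas they were -0.25 for complex I, 0.02 for complex II, -0.05 for complex III, 0.21 for complex IV and 0.35 for complex V. edgeR called no gene of the complexes in either grade and 0 had an unadjusted p under 0.05, while DESeq2 called 1 complex I gene, Ndufb2, lower in mild retinas (adjusted p = 0.0393). These values share the Gpnmb+ animals, and differences between the grades in them were tested by the trend alone. The trend is a slope from mild over moderate to severe, so it cannot test whether moderate retinas stand above both other grades. In the list for mitochondrial transcription and RNA handling, 17 of 29 were higher in mild, 18 of 29 in moderate and 13 of 29 in severe retinas than in Gpnmb+. edgeR called none, and Tefm (log2 fold change -7.86 ± 3.18) and Fastkd5 (-11.5 ± 4.85) were lower in mild retinas at an unadjusted p under 0.05. DESeq2 called Tefm (-8.13), Fastkd5 (-10.6) and Ppargc1a (-22.9) lower in mild retinas and Ppargc1a (-24.6) lower in severe retinas. Mild and severe retinas gave 2 sums each, and the levels behind these folds are not given. Counts at or near 0 may set folds of this size, which was not tested. These genes are named after their values were seen.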

How the data were processed

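RNA of sorted microglia was sequenced with 1 library per retina. The deposited tables hold expected counts, estimated by the authors and not always whole, and TPM values, 1 row per gene, as the file headers say. Per the submitters' processing notes, the build was mm10, and the tools listed without a role are R 4.0.3, DESeq2 1.30.1 and Salmon 1.4.0. How reads matching several genes were shared out is not given in the sources used here. A deposited FPKM table with 24 value columns was not used.

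Expected counts were rounded and summed over the eyes of an animal, or of an animal and grade. edgeR 4.0.16 in R 4.3.3 (quasi-likelihood F test, TMM scaling, genes kept by filterByExpr at min.count 10 and min.total.count 15) tested all genes. P-values were two-sided, with Benjamini-Hochberg adjustment within each comparison and a threshold of 0.05. The 3 comparisons of groups shared 1 fit of 15 animals. Nothing in the labels ties animals to litters or batches, so p-values measure the spread between these animals. For the trend and the grades, the 2 sums of animals 1 and 5 were taken as independent. Level plots of grades use the scaling of the fit of 17 sums. CPM per retina are scaled to the whole library total. Correlations used log2 CPM with a prior count of 2. Copies were found with blastn 2.17.0 in GENCODE transcripts of GRCm38, which matched 47310 of the 47729 gene IDs to a symbol. A copy's TPM was multiplied by its length over the member's before it was added. Chi-square tests of the counts of 91 pairs of retinas within groups gave at least 81.8 per degree of freedom, so none was counted as a duplicate. The scripts were tested on simulated counts.

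The members, gene lists and comparisons were chosen with earlier results of these data known. Named are all members, other mitochondrial genes and copies, the genes with the smallest p of each nuclear list, and the 6 most alike and 3 most opposite genes. Alternatives were DESeq2 1.42.0, RLE scaling, scaling without mitochondrial genes, other filters, other units of replication (limma 3.58.1), leaving out libraries or animals, and the animal number as a block. Adding the nuclear copies to the members, and all alternatives for single grades, were chosen after seeing the data.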

Additional observations from a re-analysis of the deposited data

Results flagged for a closer look

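mt-Cytb, the cytochrome b of complex III, had 322.3 CPM in 6-month DBA/2J animal 1, against 439.2 to 480.9 CPM in the other 4 animals of the group. Its distance from the nearest of them was large for the range of the 5 values by Dixon's criterion. It was the only value set apart in 32 groups of member levels and shares examined, where chance sets apart about 1 in 20. The same animal had the lowest share of the library on the 9 members, at 0.400%, and the lowest share on mt-Rnr2, at 0.237%, with a library total of 17282400 counts and 16308 genes detected.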

How the results depend on the processing

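Of the alternative values of group-level results, 393 moved by less than the spread between animals, or for counts of genes by less than 1.5 times. Of those of single members, 818 did so or, where tested, kept their direction and side of the threshold. The rest were 24 group-level values that moved and, for single members, 27 that reversed and 1 that moved. The spread was 0.394 log2 units for the members' median and 4.539 for mt-Co3. The members' medians against Gpnmb+ were smaller than 0.394 in 12-month DBA/2J (-0.102), mild (0.011) and moderate retinas (0.201). For these the count says little about how firm the values are. Of these 393, 13 still changed sign, all of them members' medians close to 0, in mild retinas (otherwise 0.011, to -0.353 at the lowest) or in 12-month DBA/2J against Gpnmb+ (to 0.263 without the retinas of few genes and 0.111 without Gpnmb+ animal 1). Of the 818, 1 did, mt-Co3 in 6-month DBA/2J against Gpnmb+, at 0.331 with a random animal effect in place of -1.321. The other exceptions follow, and no cause was tested. In place of 0 genes called by edgeR, DESeq2 called 108 for 12-month DBA/2J against Gpnmb+, 60 for 12-month against 6-month DBA/2J, 57 for 6-month DBA/2J against Gpnmb+, 26 for the trend, 599 for mild, 296 for moderate and 281 for severe retinas. Without a filter on low counts the calls were 2 between the ages, 6 in the trend, 31 in mild, 33 in moderate and 10 in severe retinas. Retinas with a random animal effect gave 8 calls for 12-month DBA/2J against Gpnmb+, 5 between the ages, 40 for 6-month DBA/2J against Gpnmb+ and 2 in the trend. Leaving out 1 animal at a time gave 0 to 1 calls for 12-month DBA/2J against Gpnmb+, 0 to 2 in mild and 0 to 4 in moderate retinas.

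In 12-month DBA/2J against Gpnmb+, log2 fold changes changed sign for mt-Nd2 (0.214), mt-Co1 (0.040) and mt-Atp6 (-0.010) with a random animal effect, for mt-Atp6 (-0.133) with the deeper retina of each animal, and for mt-Co3 (-0.615) and mt-Cytb (0.021) without the 2 retinas of low depth. Without the 5 retinas of few genes, which leaves no retina of Gpnmb+ animals 1 and 2, they did so for mt-Nd2 (0.784), mt-Co1 (0.140), mt-Nd4 (0.167), mt-Nd5 (0.007) and mt-Cytb (0.263). Leaving out 1 animal gave ranges of -0.269 to 0.277 for mt-Nd2, -0.273 to 0.111 for mt-Co1, -0.758 to 0.908 for mt-Co3, -0.309 to 0.036 for mt-Nd5 and -0.244 to 0.042 for mt-Cytb. In the trend mt-Co1 was 0.011 per grade without a filter, and leaving out 1 animal gave -0.231 to 0.026 for mt-Nd1 and -0.137 to 0.066 for mt-Co1. Without the retinas of few genes the members' median was 0.769 in moderate retinas (otherwise 0.201) and -0.038 in severe retinas (otherwise -0.450). The members' share in 12-month DBA/2J was 1.04% with the copies and 0.896% without them.

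Replicate numbers name different animals in each group. Same-numbered animals had correlations of -0.046 to 0.088 over 15 pairs, none above 0.1, and 5 correlated best with their own number, so the numbers do not pair them. With the replicate number as a block the members' median was -0.057 for 12-month DBA/2J against Gpnmb+, 0.867 between the ages and -0.828 for 6-month DBA/2J against Gpnmb+, and mt-Nd2 changed sign in the first of these (0.030). With the animal as a block in the trend, the median was -0.426 per grade, and mt-Co3 changed sign (0.659). Only animals 1 and 5, which went opposite ways, inform these blocked slopes. The depth of single retinas, down to 977873 counts, and 2 or 3 animals per grade limit the precision.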

Other observations

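One feature of the members was seen in the values and is given as a description without a test. mt-Co2, mt-Atp6 and mt-Co3 are neighbours on the chromosome, with mt-Atp8 between the first 2 of them. Their copies Gm28661, Gm10925 and Gm28437 also lie side by side on chromosome 1. These match 681, 678 and 783 bases of the 3 members, in this order, at 100% identity. The ratio below adds members and copies, so it does not place a difference on either chromosome. The log2 ratio of these 3 members to the other 6, with nuclear copies added, was -0.53 ± 0.41 in 12-month DBA/2J, -1.02 ± 0.11 in 6-month DBA/2J and -0.97 ± 0.18 in Gpnmb+ animals (SD, n = 5 each). It reached -0.01 in 12-month DBA/2J animal 4 and -0.19 in animal 1, and stood at -0.73, -0.71 and -0.99 in animals 2, 3 and 5. The eyes of animals 4 and 1 differed. With copies, mt-Co2 had 3363.1 CPM of the library in the left and 931.5 in the right retina of animal 4, and mt-Co1 had 3410.0 and 2972.1. In animal 1 mt-Co2 had 2819.8 in the right and 819.8 in the left retina, and mt-Co1 had 3837.8 and 2422.4. The left retina of animal 4 is of low depth, at 1706745 counts. The highest Gpnmb+ animal was at -0.81 and the highest 6-month animal at -0.90.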
